A study of Mus musculus with 4 samples.

Results

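The genes described here encode the matrix metalloproteinases (Mmp), the ADAM and ADAMTS proteases, the TIMP inhibitors, and the plasminogen activators Plau and Plat with the urokinase receptor Plaur. The rule that picks them reads only gene symbols, although the families were chosen with earlier results of these data known. Where several probe sets carried a symbol, the brightest on average stood for the gene. This gave 79 genes of 22180 with a unique platform symbol: 22 Mmp, 32 Adam, 18 Adamts and 4 Timp genes, and the 3 genes of the plasminogen activator system. They were measured in mouse mesenchymal stem cells, the adherent stromal cells of bone marrow, labelled Snail1-KO or Snail1-WT by genotype. Snail1, the product of Snai1, is a zinc finger repressor. Cells of each genotype were given the cytokine TGF-b1 for 2 h or left untreated, and each of the 4 groups had 1 array. The labels do not say how the Snail1 gene was removed, nor whether cells of a genotype came from 1 clone, 1 animal or several.

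The active Mmp, ADAM and ADAMTS enzymes use zinc in catalysis and are made as inactive precursors, some ADAM proteins lack protease activity, and Plau and Plat are serine proteases. Matrix metalloproteinases cleave collagens, laminins and other matrix proteins, ADAM proteases mostly release the outer parts of membrane proteins such as growth factor precursors, and ADAMTS proteases cut proteoglycans, procollagens and microfibril proteins. TIMPs block the active sites of the metalloproteinases, and plasmin, generated by Plau or Plat, can activate several precursors. In connective tissue, stromal cells are a main source of these enzymes, and TGF-b1 is known to alter the balance between proteases and inhibitors.

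Values are RMA log2 values, so a difference of 1 is 2-fold and 0.58 is 1.5-fold. With 1 array per group no p-value is given, and no difference has a replicate check. As a yardstick of error, a noise SD for differences between arrays was computed from how far the responses of Snail1-KO and Snail1-WT cells to TGF-b1 disagreed among the 500 genes nearest in level. It lay between 0.08 and 0.31 for the 79 genes and was largest for those of low signal. It leaves out whatever spread both arrays of a genotype share, so it understates the error of a genotype difference. The mean over the 4 arrays lay in the upper 60% of all genes, at 4.51 or more, for 42 of the 79 genes, and 37 lay below. Levels are compared between arrays for the same gene and not between genes. In cells measured in bulk, fewer cells of a type and less RNA per cell cannot be told apart.

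The labels were checked on the same arrays. Snai1 measured 5.34 with TGF-b1 and 5.09 without it in Snail1-KO cells, against 7.63 with TGF-b1 and 6.69 without it in Snail1-WT cells. Whether its probe set reports the removed sequence is not known here. Of 12 stromal markers, 11 were measured and 9 lay in the upper 60% of genes, whereas Lepr and Nt5e did not. Of 7 neutrophil markers none did, nor did the pan-leukocyte gene Ptprc or the macrophage gene Adgre1. Other macrophage markers were mixed, with Cd68 and Cd14 among 4 of 8 in the upper 60%, as were 1 of 3 leukocyte, 1 of 5 osteoclast and 3 of 5 endothelial markers. The median genotype difference of the 8 macrophage markers was -0.12 with and 0.17 without TGF-b1, and their part in the results was not tested.

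Of the 22 Mmp genes, 10 form an unbroken run on mouse chromosome 9 in the gene order of GRCm38.p6, with no other protein-coding gene between them. From one end to the other these are Mmp13, Mmp12, Mmp1b, Mmp3, Mmp1a, Mmp10, Mmp8, Mmp27, Mmp20 and Mmp7. The remaining 12 Mmp genes lie elsewhere. Promoter sequences from RefSeq, covering 250 bases before to 50 bases after an annotated start, were found for 47 of the 79 genes, all 10 cluster genes among them. The letters TGAGTCA, or TGACTCA on the other strand, are the site of AP-1, the FOS and JUN factors. They stood in 5.2% of all 32851 promoter windows, and in those of 7 of the 10 cluster genes and 4 of the 37 other genes with a sequence. The cluster genes are paralogs that arose by duplication, so their promoters are related sequences and not independent cases. The windows are shown for these 7 genes, and for Plaur and Adam19, whose values are given further on. The AP-1 letters are in capitals, and each sequence runs 5′ to 3′ on the strand of the gene in GRCm38.p6.
Mmp13 (chr9:7272464-7272500, + strand): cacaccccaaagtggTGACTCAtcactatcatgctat
Mmp12 (chr9:7347315-7347351, + strand): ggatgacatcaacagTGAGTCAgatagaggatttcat
Mmp1b (chr9:7388098-7388134, - strand): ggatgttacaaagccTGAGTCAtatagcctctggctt
Mmp3 (chr9:7445761-7445797, + strand): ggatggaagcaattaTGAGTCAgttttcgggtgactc
Mmp1a (chr9:7464053-7464089, + strand): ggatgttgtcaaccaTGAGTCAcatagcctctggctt
Mmp10 (chr9:7502264-7502300, + strand): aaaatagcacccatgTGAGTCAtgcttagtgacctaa
Mmp7 (chr9:7692012-7692048, + strand): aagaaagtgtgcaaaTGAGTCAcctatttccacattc
Plaur (chr7:24462399-24462435, + strand): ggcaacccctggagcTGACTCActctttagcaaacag
Adam19 (chr11:46055838-46055874, + strand): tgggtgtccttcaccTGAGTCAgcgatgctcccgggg

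In the 7 cluster genes the site began between 35 bases (Mmp13) and 93 bases (Mmp1b) before the annotated start. In Plaur it began 69 bases and in Adam19 131 bases before it. The TATA box letters TATAAA, searched on both strands, stood in 13.6% of all windows, in those of 9 of the 10 cluster genes and in those of 5 of the 37 others. The E-box CAGGTG, a sequence that Snail1 binds, stood in 20.2% of all windows and in those of 9 of the 47 genes, among them Timp3, Timp2, Mmp10 and Adam19. The SMAD palindrome GTCTAGAC stood in 0.213% of windows and in none of the 47. None of these 4 motifs contains another, and a match is a description of the letters, not of binding. The whole window of Mmp3, the cluster gene with the largest genotype difference, shows the AP-1 and TATA box letters in capitals, the TATA box letters starting at position -7 from the annotated start.
Mmp3 (chr9:7445572-7445871, + strand): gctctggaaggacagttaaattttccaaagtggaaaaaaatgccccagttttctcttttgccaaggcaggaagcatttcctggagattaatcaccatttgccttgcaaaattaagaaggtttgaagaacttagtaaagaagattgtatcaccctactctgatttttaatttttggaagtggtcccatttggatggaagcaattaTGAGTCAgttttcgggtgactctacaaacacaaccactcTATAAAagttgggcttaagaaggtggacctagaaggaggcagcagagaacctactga

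**Figure D1:**
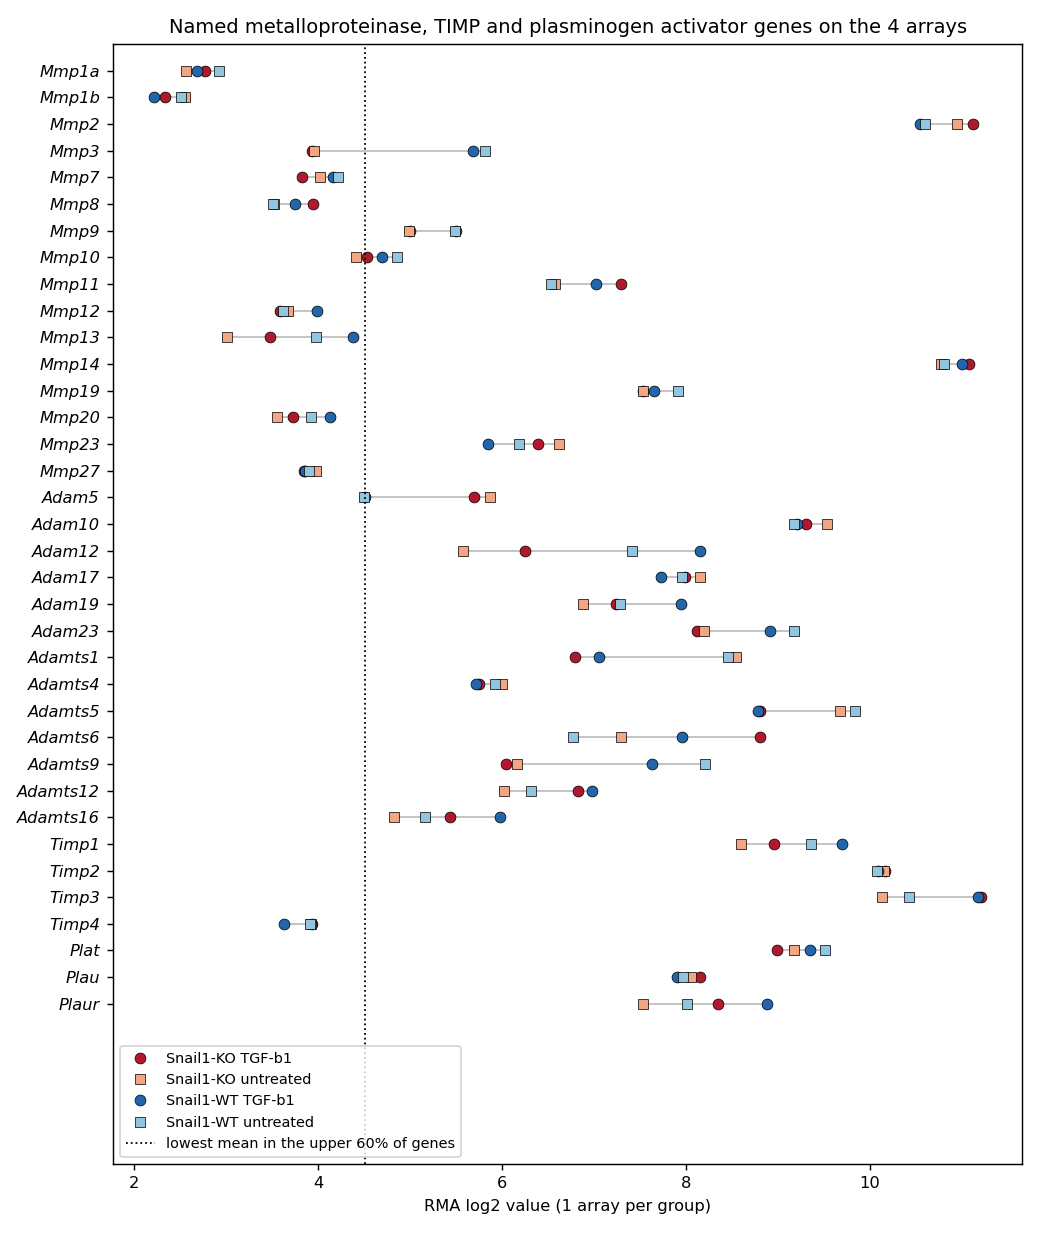
RMA log2 values of 36 genes on the 4 arrays, with 1 point per array, so there are no error bars (red, Snail1-KO; blue, Snail1-WT; dark circles, with TGF-b1; light squares, untreated). The red and blue points of Mmp3, Adam12, Adamts9 and Adam5 lie apart, the circles and squares of Adamts1, Adamts5, Adamts6 and Timp3 lie apart, and Timp2 lies between 10.07 and 10.16 on all arrays.

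The genotype difference was largest for a few members, which lay apart in the same direction with and without TGF-b1. In both pairs of arrays, 3 of the 79 genes (Adamts9, Adam12 and Mmp3) had Snail1-KO values at least 2-fold below those of Snail1-WT cells, and 1 (Adam5) had values at least 2-fold above. With TGF-b1, 0.446% of all 22180 genes were at least 2-fold lower and 0.726% higher. Without it these shares were 0.528% and 0.6%, and in both pairs at once they were 0.298% lower and 0.356% higher. The members called at 2-fold were the same genes in each pair. At the 1.5-fold threshold 7 members were lower and 2 higher with TGF-b1, beside 2.9% and 4.06% of all genes. Without TGF-b1 7 were lower and 1 higher, beside 2.65% and 3.48%. In both pairs 6 were lower and 1 higher, beside 1.1% and 1.68%. As a share of the 79 genes, 7.59% were thus at least 1.5-fold lower in both pairs. The median difference over all 79 genes was only -0.03 with and -0.04 without TGF-b1, against -0.02 and 0.01 for all genes, so the typical member lay near no difference.

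Mmp3, or stromelysin 1, cleaves proteoglycans, laminin and several precursors of other Mmp proteins. It measured 3.93 with TGF-b1 and 3.96 without it in Snail1-KO cells, against 5.68 with TGF-b1 and 5.81 without it in Snail1-WT cells. Both Snail1-KO arrays were thus far below both Snail1-WT arrays, with differences of -1.75 with and -1.85 without TGF-b1, at a noise SD of 0.21. The Snail1-KO values lay below 4.51, so the size of the difference is uncertain.

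Mmp13, collagenase 3, measured 3.48 with TGF-b1 and 3.01 without it in Snail1-KO cells, against 4.38 and 3.97 in Snail1-WT cells. The differences were -0.90 and -0.96, at a noise SD of 0.24, but all 4 values lay below 4.51. Mmp10, stromelysin 2, differed by less, at -0.16 with and -0.45 without TGF-b1. Its values were 4.53 and 4.41 in Snail1-KO cells, against 4.69 and 4.86 in Snail1-WT cells, at a noise SD of 0.22.

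The other 7 cluster genes all lay below the upper 60% of genes. Among these are Mmp8, the collagenase best known from neutrophils, Mmp12, the macrophage elastase, and Mmp20, the enamel protease. None of the 7 was 1.5-fold apart in either pair. Of all genes, 4.06% were higher and 2.9% lower with TGF-b1, and 3.48% and 2.65% without it, so none among 7 is near these shares. Mmp20 differed by -0.41 with and -0.37 without TGF-b1, and Mmp7 by -0.33 and -0.20, at noise SDs of 0.25 and 0.26. A second and dimmer probe set of Mmp7 gave 0.23 and -0.26. Mmp12 differed by -0.40 and 0.05, Mmp1a by 0.08 and -0.36, Mmp1b by 0.12 and 0.04, Mmp8 by 0.19 and 0.01, and Mmp27 by -0.01 and 0.07. Over the 10 cluster genes the median was -0.25 with and -0.28 without TGF-b1, and over the 12 other Mmp genes it was 0.01 and 0.03. Of the 7 cluster genes with the AP-1 letters, Mmp3 and Mmp13 were the 2 that were lower by 1.5-fold or more in the knockout. The rest of the 7 were not 1.5-fold apart in either pair, nor were the cluster genes without the letters. Whether the letters bear on the genotype difference was not tested.

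The neighbours of the cluster were lower in Snail1-KO cells as well. Among the nearest 8 protein-coding genes on each side, 12 lay in the upper 60% of genes, and the Snail1-KO value of every such gene was below the Snail1-WT value in each pair, with a median difference of -1.16 with and -1.23 without TGF-b1. Of these 12 genes, 11 were at least 1.5-fold lower with TGF-b1 and 10 without it, beside 2.9% and 2.65% of all genes. Among them, Cep126, which had the largest difference with TGF-b1 (-1.96), measured 4.50 on both Snail1-KO arrays and so reached the upper 60% only through its Snail1-WT values of 6.46 and 6.35. The nearest on either side were Dcun1d5, a regulator of cullin ligases, at -1.56 and -1.44, and Tmem123, at -1.05 and -0.96. The 4 neighbours below the upper 60% (Gria4, Ddi1, Trpc6 and Pgr) differed by between -0.17 and 0.22. Lower values thus ran across the region on both sides of the Mmp genes, and what part this has in the differences of Mmp3 and Mmp13 was not tested.

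**Figure D2:**
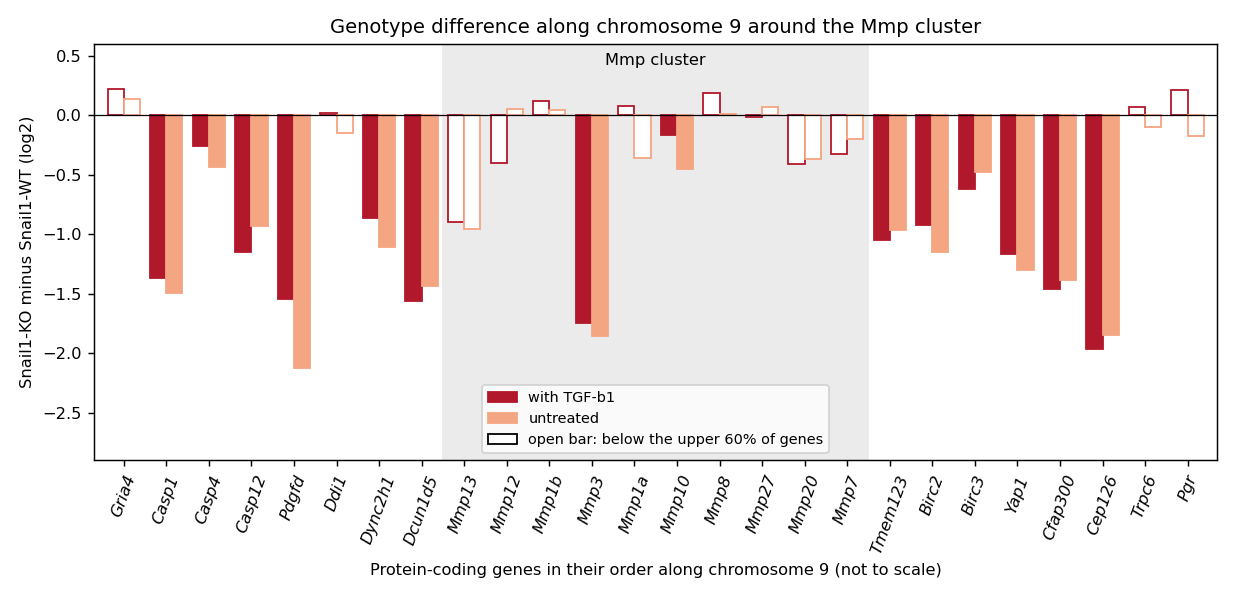
Snail1-KO minus Snail1-WT (log2) with TGF-b1 (red) and untreated (light) for the 10 genes of the Mmp cluster, shaded, and the nearest 8 protein-coding genes on each side in their order along chromosome 9, with 1 array per group and no error bars. Filled bars, for genes in the upper 60% by level, all point down inside and outside the cluster, and Mmp3 reaches -1.75 and -1.85.

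Adam12, a membrane and secreted protease that processes growth factors and marks activated mesenchymal cells, measured 6.25 with TGF-b1 and 5.58 without it in Snail1-KO cells, against 8.15 with TGF-b1 and 7.41 without it in Snail1-WT cells. Both Snail1-KO arrays were below both Snail1-WT arrays, with differences of -1.90 and -1.83, at a noise SD of 0.14. The responses to TGF-b1 were nearly equal, 0.67 in Snail1-KO and 0.74 in Snail1-WT cells. Its nearest measured neighbours in the upper 60% of genes, Dhx32 and Dock1, differed by genotype by between -0.40 and 0.10.

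Adam19, which sheds neuregulin precursors, measured 7.24 with TGF-b1 and 6.88 without it in Snail1-KO cells, against 7.94 and 7.28 in Snail1-WT cells. The genotype difference was -0.70 with and -0.40 without TGF-b1, at a noise SD of 0.13, and the response to TGF-b1 was 0.36 in Snail1-KO and 0.66 in Snail1-WT cells. A dimmer second probe set gave responses of 0.08 and 0.34. Adam23, which lacks protease activity and binds integrins, was lower in Snail1-KO cells, with 8.12 with TGF-b1 and 8.19 without it, against 8.91 and 9.17 in Snail1-WT cells. It differed by -0.79 and -0.98 at a noise SD of 0.09.

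Adam5, a gene known mainly from testis, went the other way. It measured 5.69 with TGF-b1 and 5.86 without it in Snail1-KO cells, against 4.50 with TGF-b1 and 4.50 without it in Snail1-WT cells, so that both Snail1-KO arrays were higher, by 1.19 and 1.37 at a noise SD of 0.20. The Snail1-WT values lay just under 4.51, so the size is uncertain. Its neighbour Adam9 on chromosome 8 measured between 10.18 and 10.24 on all 4 arrays.

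The sheddases Adam10 and Adam17, which release Notch and EGF receptor ligands among others, differed by less than 1.5-fold in each genotype pair. Adam10 measured 9.30 with TGF-b1 and 9.53 without it in Snail1-KO cells, against 9.21 and 9.17 in Snail1-WT cells. The untreated Snail1-KO array was the highest, by 0.36 over untreated Snail1-WT cells at a noise SD of 0.08. Adam17 differed by 0.26 with and 0.19 without TGF-b1, at a noise SD of 0.11. Over all 32 Adam genes, 11 lay in the upper 60% by level, and the other 21, most of them known from testis or epididymis such as Adam2, Adam3 and Adam18, ranged from 1.82 to 4.64 and differed by between -0.67 and 0.59 over the 4 comparisons.

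Adamts9, a protease of versican and aggrecan, had the largest genotype difference of the 79 genes without TGF-b1. It measured 6.04 with TGF-b1 and 6.17 without it in Snail1-KO cells, against 7.63 with TGF-b1 and 8.21 without it in Snail1-WT cells. Both Snail1-KO arrays were below both Snail1-WT arrays, with differences of -1.59 and -2.04 at a noise SD of 0.15. On either side, the nearest genes in the upper 60%, Prickle2 and Magi1, differed by between -0.05 and 0.52, so the lower value was not shared by its neighbours.

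The gelatinases went in opposite directions. Mmp2, gelatinase A, measured 11.12 with TGF-b1 and 10.95 without it in Snail1-KO cells, against 10.55 and 10.60 in Snail1-WT cells, which is higher by 0.57 and 0.35 at a noise SD of 0.08. Mmp9, gelatinase B, measured 4.99 with TGF-b1 and 4.98 without it in Snail1-KO cells, against 5.50 and 5.48 in Snail1-WT cells, a difference of -0.51 and -0.50 at a noise SD of 0.22. Neither reached 1.5-fold.

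Mmp14, the membrane protease that activates the Mmp2 precursor, differed by 0.07 and -0.04 between genotypes. Mmp23, an unusual membrane-tethered member, differed by 0.54 with and 0.43 without TGF-b1, at a noise SD of 0.18, and Mmp19 by -0.13 and -0.38, at 0.11. Among the 5 Mmp genes in the upper 60% that are not named otherwise, Mmp28 (epilysin), picked after its values were seen, differed by 0.27 and 0.54.

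Of the inhibitors, Timp1 was lower in Snail1-KO cells. It measured 8.96 with TGF-b1 and 8.60 without it in Snail1-KO cells, against 9.69 with TGF-b1 and 9.36 without it in Snail1-WT cells. The differences were -0.73 and -0.76, at a noise SD of 0.08 that understates the error of a genotype difference. The response to TGF-b1 was nearly equal, 0.36 in Snail1-KO and 0.33 in Snail1-WT cells. Timp2 stayed between 10.07 and 10.16 on all 4 arrays. Timp4 lay between 3.62 and 3.94, below 4.51.

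The urokinase receptor gene Plaur measured 8.34 with TGF-b1 and 7.53 without it in Snail1-KO cells, against 8.88 with TGF-b1 and 8.01 without it in Snail1-WT cells. Its genotype difference was -0.53 and -0.48, and it was higher after TGF-b1 by 0.82 in Snail1-KO and 0.87 in Snail1-WT cells, at a noise SD of 0.10. Plat, tissue plasminogen activator, had genotype differences of -0.35 and -0.33, and its TGF-b1 responses were -0.18 and -0.16, at a noise SD of 0.08. Plau, the urokinase gene, measured 8.15 with TGF-b1 and 8.06 without it in Snail1-KO cells, against 7.90 and 7.97 in Snail1-WT cells, and its responses were 0.09 and -0.06.

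**Figure D3:**
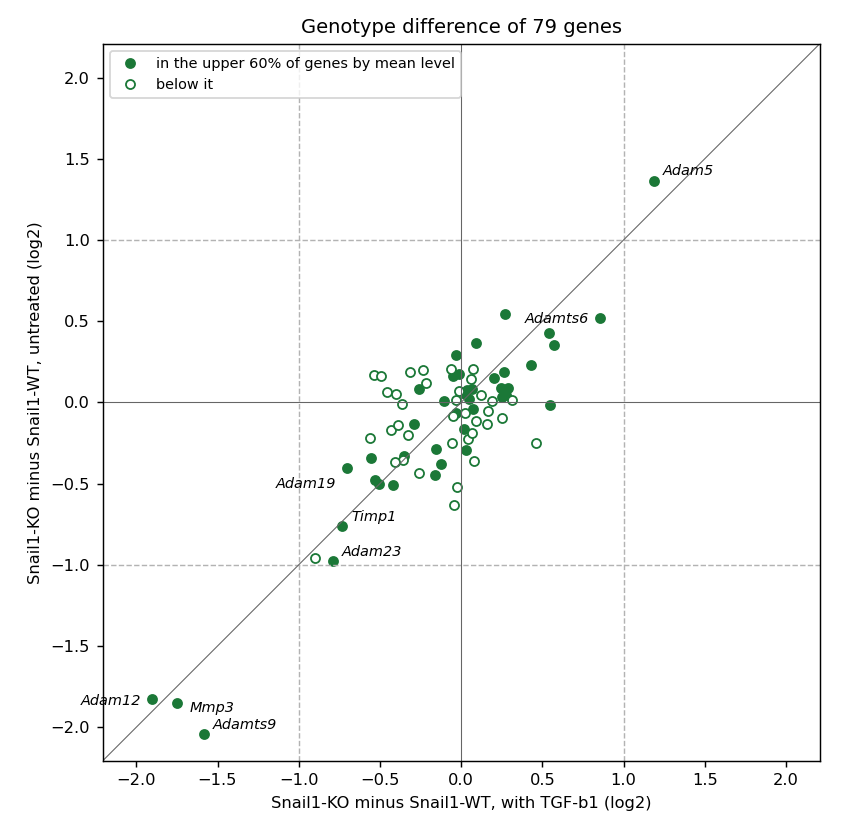
Snail1-KO minus Snail1-WT (log2) with TGF-b1 (horizontal) and untreated (vertical) for the 79 genes, filled where the mean level lay in the upper 60% of genes. The pairs of arrays share none, dashed lines mark 2-fold, and the diagonal marks equal differences; Adam12, Mmp3 and Adamts9 lie past 2-fold at the lower left and Adam5 at the upper right.

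After 2 h of TGF-b1 the differences furthest from 0 in either direction were in ADAMTS genes, in both genotypes. Adamts1 was at least 2-fold lower and Adamts6 at least 2-fold higher in each genotype. In Snail1-KO cells 2 of the 79 genes passed 2-fold upward, Adamts6 and Timp3, and 1 downward, Adamts1, beside 0.681% and 0.234% of all genes. In Snail1-WT cells 1 was higher, Adamts6, and 2 were lower, Adamts1 and Adamts5, beside 0.478% and 0.216%. At 1.5-fold 7 members were higher and 3 lower in Snail1-KO cells, beside 2.97% and 2.26% of all genes. In Snail1-WT cells 8 were higher and 3 lower, beside 2.3% and 1.86%. The medians over the 79 genes were -0.02 and -0.00, so most members lay near no response.

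Adamts1 and Adamts5, both proteases of aggrecan and versican, are neighbours on chromosome 16. Adamts1 measured 6.79 with TGF-b1 and 8.54 without it in Snail1-KO cells, against 7.06 with TGF-b1 and 8.46 without it in Snail1-WT cells. Both treated arrays were below both untreated arrays, with responses of -1.75 and -1.40 at a noise SD of 0.11. Adamts5 measured 8.80 with TGF-b1 and 9.67 without it in Snail1-KO cells, against 8.78 with TGF-b1 and 9.84 without it in Snail1-WT cells. It too was lower on both treated arrays, with responses of -0.88 and -1.06, at a noise SD of 0.08. The genes flanking this pair, App and N6amt1, had responses between -0.07 and 0.09. Adamts4, another protease of this kind, responded by -0.25 and -0.21, at a noise SD of 0.18. Adamts9, named above as such a protease, responded by -0.13 in Snail1-KO and -0.58 in Snail1-WT cells, at a noise SD of 0.15.

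Adamts6, a protease linked to fibrillin microfibrils, had the highest response of the 79 genes in each genotype. It measured 8.81 with TGF-b1 and 7.29 without it in Snail1-KO cells, against 7.95 with TGF-b1 and 6.77 without it in Snail1-WT cells. Both treated arrays were above both untreated arrays, with responses of 1.51 and 1.18 at a noise SD of 0.11. Snail1-KO cells were also higher, by 0.85 with and 0.52 without TGF-b1. Its nearest neighbours in the upper 60% of genes, Cenpk and Cwc27, responded by between -0.38 and -0.04.

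Adamts12, which cleaves cartilage oligomeric matrix protein, measured 6.82 with TGF-b1 and 6.02 without it in Snail1-KO cells, against 6.98 and 6.31 in Snail1-WT cells, with responses of 0.80 and 0.67 at a noise SD of 0.15. Adamts16 measured 5.43 with TGF-b1 and 4.82 without it in Snail1-KO cells, against 5.98 and 5.16 in Snail1-WT cells, with responses of 0.61 and 0.82 at a noise SD of 0.23. Adamts12 and Adamts16 were thus higher with TGF-b1 in each genotype by at least 1.5-fold. Of the 18 Adamts genes, 12 lay in the upper 60% by level, and the other 6 differed by between -0.63 and 0.26.

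Timp3, the inhibitor that binds to the matrix and blocks ADAM and ADAMTS proteases as well as Mmp proteins, measured 11.21 with TGF-b1 and 10.13 without it in Snail1-KO cells, against 11.18 with TGF-b1 and 10.43 without it in Snail1-WT cells. Both treated arrays were above both untreated arrays, with responses of 1.07 and 0.75 at a noise SD of 0.08. The treated values of the genotypes differed by only 0.03.

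Mmp11, stromelysin 3, a protease of activated stroma, measured 7.29 with TGF-b1 and 6.57 without it in Snail1-KO cells, against 7.02 and 6.53 in Snail1-WT cells. Its responses were 0.72 and 0.49, and a second probe set gave 0.70 and 0.19. Mmp14 was higher after TGF-b1 by 0.31 in Snail1-KO and 0.19 in Snail1-WT cells, at a noise SD of 0.08. Mmp3, for which TGF-b1 responses were -0.02 and -0.12, and Mmp9, at 0.01 and 0.02, did not respond beyond the noise SD. None of the 10 cluster genes was 1.5-fold apart after TGF-b1 in either genotype.

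**Figure D4:**
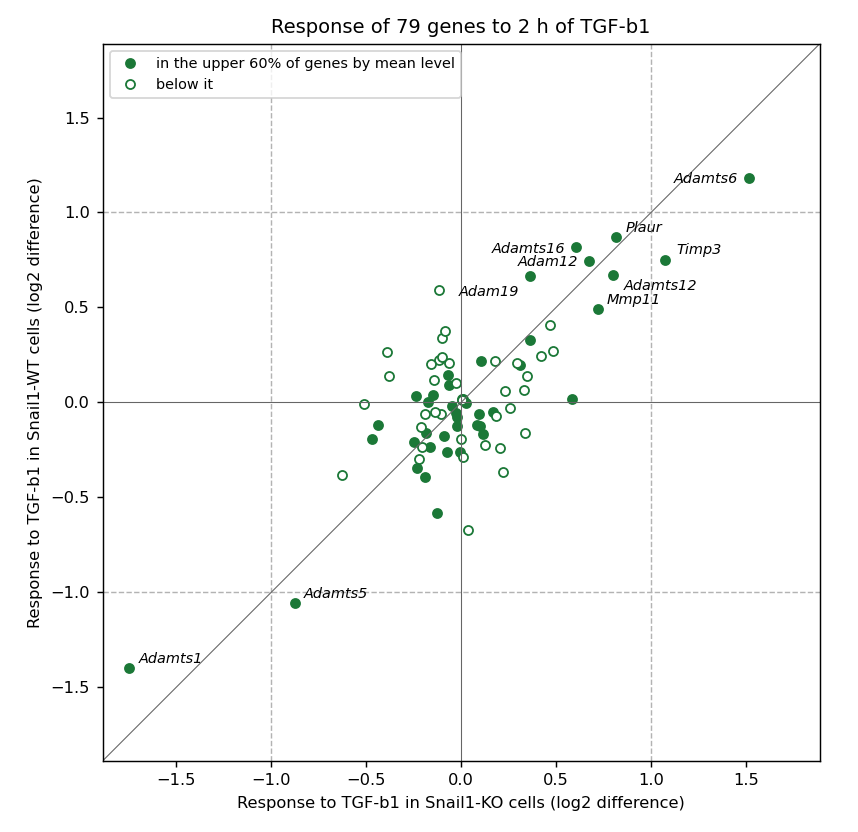
Response to 2 h of TGF-b1 (treated minus untreated, log2) in Snail1-KO cells (horizontal) and Snail1-WT cells (vertical) for the 79 genes, filled where the mean level lay in the upper 60% of genes. The responses share no array, dashed lines mark 2-fold, and the genes past 1.5-fold in the upper 60% had the same direction in both genotypes, from Adamts1 at -1.75 and -1.40 to Adamts6 at 1.51 and 1.18.

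Whether the response depended on Snail1 was addressed by the difference of the responses, Snail1-KO minus Snail1-WT. At 1.5-fold 2 of 79 genes had a higher and 2 a lower response in Snail1-KO cells, beside 3.2% and 4.05% of all genes. These were Adam25 and Adamts15 (higher) and Adam21 and Adam24 (lower), all below the upper 60% by level and named after their values were seen. Timp3 differed by 0.32 at an SD of 0.11 for a difference of responses. Adam10 followed at -0.27 and Adamts1 at -0.35, with SDs of 0.12 and 0.15, and Adamts6 at 0.33, with an SD of 0.15. Adamts9 had a response of -0.13 in Snail1-KO and -0.58 in Snail1-WT cells, a difference of 0.46 at an SD of 0.22. Adamts10, chosen for mention after its values were seen, measured 8.01 with TGF-b1 and 7.42 without it in Snail1-KO cells, against 7.46 and 7.44 in Snail1-WT cells, with responses of 0.58 and 0.02. Its difference of responses was 0.57, just under 1.5-fold, at a noise SD of 0.12 for a single difference. The SDs given above are for a difference of responses and are wider for the same gene, so they are not on this scale. Adamts10 is not among the 36 ordered genes, so Timp3 is not shown to depart most of all 79.

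Genes that act with these proteases were described from 4 lists. Of 24 regulators and plasmin partners 22 were measured, with median genotype differences of -0.02 with and 0.05 without TGF-b1. In each pair none was at least 1.5-fold higher, beside 4.06% and 3.48% of all genes, and the same 3 were lower, beside 2.9% and 2.65%: Pcsk6, a proprotein convertase (-1.06 and -1.37), Sdc4, a heparan sulfate proteoglycan (-0.61 and -0.63), and Serpinb2, an inhibitor of urokinase (-0.95 and -1.22, below the upper 60% by level). Furin, the convertase that activates Mmp14 and ADAM precursors, was higher after TGF-b1 by 0.77 in Snail1-KO and 0.65 in Snail1-WT cells. Reck, a membrane inhibitor of Mmp proteins, measured between 7.20 and 7.35 on the 4 arrays.

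Of 20 other extracellular metalloproteinases and ADAMTS-like genes, 5 were at least 1.5-fold higher after TGF-b1 in Snail1-KO cells and 5 in Snail1-WT cells. These counts stand beside 2.97% and 2.3% of all genes. None was lower, beside 2.26% and 1.86% of all genes. The 3 genes in both counts of higher genes were Tll1, Adamtsl2 and Adamtsl3. Pappa and Adamdec1 passed in Snail1-KO cells (0.76 and 0.66, against 0.45 and 0.03 in Snail1-WT cells). Adamdec1 lay below the upper 60% by level. Anpep and Papln passed in Snail1-WT cells (0.72 and 0.63, against 0.58 and -0.17 in Snail1-KO cells). Tll1, a relative of the procollagen C-proteinase, had responses of 1.47 in Snail1-KO and 1.56 in Snail1-WT cells, and its untreated Snail1-KO value of 3.84 lay below 4.51. Adamtsl2, which binds fibrillin and lacks a protease domain, had responses of 1.70 and 0.75, and Adamtsl3 of 0.85 and 0.86. By genotype 4 of the 20 were at least 1.5-fold higher in the knockout with TGF-b1 and 4 without it, beside 4.06% and 3.48% of all genes, and 3 of them (Mme, Adamtsl4 and Adamtsl3) in both pairs. Adamtsl2 was higher by 1.12 with TGF-b1 and 0.16 without it, and Pappa2, below the upper 60% by level, by 0.39 and 0.72. Mme, or neprilysin, a membrane peptidase, was higher by 1.67 with and 1.64 without TGF-b1, Adamtsl4 by 1.32 and 1.14, Adamtsl3 by 0.90 and 0.91, and the lower gene was Tll1, at -0.86 and -0.78.

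The 12 cathepsins, mostly lysosomal proteases, had median genotype differences of 0.39 with and 0.27 without TGF-b1, and 11 were higher in Snail1-KO cells with TGF-b1 and 10 without it, beside 10531 and 11249 of all 22180 genes. Ctsh was higher by 1.10 in both pairs and Ctsd by 0.72 and 0.67, whereas Ctsw differed by -0.26 and -0.64. Of the 8 macrophage markers, 2 were higher and 6 lower in Snail1-KO cells with TGF-b1, and 6 were higher and 2 lower without it. The 2 that were higher with TGF-b1 were Lyz2 (0.71 with and 0.54 without it) and Cd14 (0.59 and 0.42). Lyz2 had a mean level of 4.16, below 4.51. Csf1r had the lowest difference with TGF-b1, at -0.55, and differed by -0.12 without it. The part of these markers in the cathepsin values was not tested. The median responses of the cathepsins to TGF-b1 were 0.01 in Snail1-KO and -0.04 in Snail1-WT cells. Of the 8 hyalectans and link proteins, substrates and partners of the ADAMTS proteases, none was 1.5-fold apart after TGF-b1 or by genotype. Ncan had responses of 0.48 in Snail1-KO and -0.15 in Snail1-WT cells, a difference of 0.64, at a noise SD of 0.22 for a single difference. Its mean level of 4.514 lay only just above the limit of 4.513. Its untreated Snail1-KO value of 4.24 and treated Snail1-WT value of 4.47 lay below that limit, so the size of the difference is uncertain. Versican (Vcan) responded by 0.25 in Snail1-KO and 0.18 in Snail1-WT cells.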

How the data were processed

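The authors deposited log2 values of 41345 probe sets on 4 Affymetrix arrays, 1 per group, and the submitters' processing notes name RMA and R 3.1.1. RMA equalises the arrays' distributions, so a shift of most genes in 1 direction would be removed. Groups came from the sample titles. The number of arrays limits the precision.

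Gene names came from the platform annotation: 23521 probe sets had 1 symbol, 1814 several and 16010 were not named here. All 79 members matched RefSeq (GRCm38.p6) by Entrez identifier, and 73 had 1 probe set. RefSeq gave gene order and promoter sequences. Differences are tested condition minus control, and counts cover all members whatever their level. No test was run, and the scripts were tested on simulated data. Members and lists were chosen with earlier results of these data known. Named genes were the chromosome 9 cluster, all Timp genes, Plau, Plaur, Plat, 12 well-known members, and any other member in the upper 60% of genes and at least 1.5-fold apart, 36 in all. Python 3.11.15, pandas 2.3.3, and limma 3.58.1 in R 4.3.3 for cyclic loess were used.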

Additional observations from a re-analysis of the deposited data

How the results depend on the processing

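Counts of members at least 2-fold apart were 3 for the response of Snail1-KO cells, 3 for that of Snail1-WT cells, 4 for each genotype pair and 4 for both pairs. They stayed the same with array medians subtracted, with cyclic loess, with the mean of all probe sets and over the upper 60% of genes. At 1.5-fold they were 10 for the response of Snail1-KO cells, 11 for that of Snail1-WT cells, 9 with and 8 without TGF-b1 by genotype, and 7 in both pairs. Over the upper 40% of genes the genotype counts were 2 with TGF-b1, 2 without it and 2 in both pairs, because Mmp3 and Adam5 lie below that level. Of 144 differences of named members, none that was at least 1.5-fold changed sign under the 3 other scalings or summaries, and 4 moved by more than the noise SD, all with the mean of probe sets. These concern Adam19 (responses of 0.22 in Snail1-KO and 0.50 in Snail1-WT cells), Mmp11 (0.34 in Snail1-WT cells) and Mmp7 (-0.05 by genotype with TGF-b1). No paired analysis was possible because each group has 1 array, so the groups share no second replicate number. No alternative addresses spread between cultures.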
